A study of Mus musculus with 20 samples.

Results

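The cytosolic ribosome is the particle that translates messenger RNA in the cytoplasm, and its proteins are encoded by the Rps genes (small subunit) and the Rpl genes (large subunit). Rplp0, Rplp1 and Rplp2 encode the acidic stalk of the large subunit, which recruits the translation factors. Transcripts of these genes are among the most abundant of a cell, and most start with a run of pyrimidines, the terminal oligopyrimidine (TOP) tract, through which mTOR and LARP1 regulate their translation. The genes were taken by symbol, as Rps or Rpl followed by a number and, where present, a paralogue suffix, with Rplp0, Rplp1, Rplp2 and Rpsa added and pseudogene symbols ending in -ps left out. The rule gave 87 of the 46983 genes counted: 36 of the small subunit and 51 of the large, 3 of them stalk genes. Of the 87, 77 were the main genes and 10 were paralogue copies (Rpl3l, Rpl7l1, Rpl10l, Rpl22l1, Rpl39l, Rps27l, Rps4l, Rps12l1, Rps3a2 and Rps3a3). GENCODE classes 83 as protein coding and Rps4l, Rps12l1, Rps3a2 and Rps3a3 as processed pseudogenes, 1 of them transcribed. Rpl10l and Rps12l1 had no count in any library.

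The 20 libraries came from KPC tumours, a mouse model of pancreatic cancer in which a cultured line of KPC cells was placed in the pancreas of C57BL/6 hosts and the tumour taken after 2 weeks, with no treatment. Hosts were wild type (WT) or IL33-/- (IL33KO); the labels give the deletion for the host mice and describe none in the implanted cells. For each host genotype there were 5 libraries of leukocytes positively selected on CD45 beads (sorted) and 5 of whole tumour (bulk). The labels give the age of the tumour, not of the mice; they name 5 hosts per genotype without tying a library to a mouse, so the error behind each p-value is that among libraries, and some of it may be technical. Il33 itself was counted in every library, at 5.71 to 20.7 CPM in sorted WT, 14.2 to 25.3 in sorted IL33KO, 54.0 to 66.9 in bulk WT and 38.0 to 56.2 in bulk IL33KO. Counts per gene do not show which exons were read, so these values do not check the labels, and the groups are called by their labels.

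Gene counts per library ran from 51.3 M to 81.0 M. Levels below are CPM (counts per M gene counts of the library) on library sizes scaled by TMM, a method that assumes most genes do not differ, and log2 differences are given with their standard error (SE) from edgeR's quasi-likelihood test, adjusted by Benjamini-Hochberg over all genes tested. Leukocyte markers set the compartments apart: the summed level of 6 pan-leukocyte genes was 6444 to 8614 CPM in sorted WT and 6444 to 7649 in sorted IL33KO, against 503 to 1114 in bulk WT and 588 to 1128 in bulk IL33KO. The sorted libraries were not pure. Tumour epithelial markers summed to 884 to 2332 CPM in them, against 5184 to 7901 in bulk, and pancreatic acinar markers reached 35575 CPM in sorted IL33KO 3. Sorted WT 3 and bulk IL33KO 1 stood apart, with 4.51% and 4.38% of reads unaligned against 7.72 to 11.2% in the other 18 libraries.

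The TOP tract can be read at the annotated start of these genes, and a few starts are shown because the tract is the shared sequence feature of the family. Each run holds 30 bases before the start and the first 15 transcribed bases, 5′ to 3′ on the gene's strand, from RefSeq's promoter table (GRCm38.p6), with a C followed by 4 or more pyrimidines at the start in capitals.
Rps6 (chr4:86857353-86857397, minus strand): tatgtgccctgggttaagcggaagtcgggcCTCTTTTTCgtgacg
Rps27 (chr3:90213634-90213678, minus strand): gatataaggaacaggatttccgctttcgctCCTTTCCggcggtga
Rplp2 (chr7:141447621-141447665, plus strand): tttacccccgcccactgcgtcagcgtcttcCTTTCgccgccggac
Rps13 (chr7:116334176-116334220, minus strand): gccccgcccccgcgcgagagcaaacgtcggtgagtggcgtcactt
Rpl22l1 (chr3:28805478-28805522, plus strand): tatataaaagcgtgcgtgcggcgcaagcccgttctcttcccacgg

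Rps6, Rps27 and Rplp2 had the tract at the annotated base, while Rps13 and the copy Rpl22l1 had none there. Of the 63 members with a promoter entry, 13 (20.6%) had a C and 4 further pyrimidines (each C or T) at exactly the annotated start, against 3.01% of all 27025 genes in the table. Searched on the gene's strand only and within 10 bases either side of the start, the same 5 letters were found in 39 members (61.9%) and in 34.4% of all genes. Annotated starts may be off by some bases, and a match is a description of letters. The members without an entry included Rpl3, Rpl7, Rpl8, Rpl17, Rpl21, Rpl23a, Rpl29, Rpl30, Rpl32, Rpl36, Rplp1, Rps12l1, Rps14, Rps20, Rps27a, Rps29, Rps3a2, Rps3a3 and Rps4l. Main genes with the tract at the start had a median log2 difference between sorted and bulk of 0.59 in WT hosts (13 genes), and those without it 0.63 (44 genes).

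The share of gene counts taken by the members overlapped between all 4 groups. It was 7.12% ± 0.575 (SD, n = 5) in sorted WT, 7.05% ± 0.845 in sorted IL33KO, 6.65% ± 0.953 in bulk WT and 7.18% ± 1.07 in bulk IL33KO. Single libraries ran from 5.67% in bulk WT 2 to 8.53% in bulk IL33KO 3. Bulk WT fell into a lower set, 6.01%, 5.67% and 6.23% in libraries 1, 2 and 4, and a higher set, 7.64% and 7.71% in libraries 3 and 5. Libraries 3 and 5 also held the highest pan-leukocyte sums of bulk WT, 853 and 1114 CPM against 503 to 511 in the other 3. Bulk IL33KO was mixed. Its library 3 had the highest share (8.53%) with the lowest sum of the group (588 CPM). Its library 5 had a share of 7.87% with the highest sum (1128 CPM). The part of leukocyte content in the share was not tested. In sorted IL33KO, library 1 stood highest at 8.52%, and 72 of the 77 main genes had their highest level of the group there.

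The balance of the subunits differed between compartments. Summed large-subunit counts were 1.24 ± 0.02 times the small-subunit counts in sorted WT and 1.24 ± 0.02 in sorted IL33KO, against 1.39 ± 0.04 in bulk WT and 1.34 ± 0.01 in bulk IL33KO. Every sorted library (1.21 to 1.27) lay below every bulk library (1.33 to 1.42). This ratio does not depend on how the library was scaled. No test was made of it. In bulk material, fewer cells of a type and less RNA per cell cannot be told apart.

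**Figure D1:**
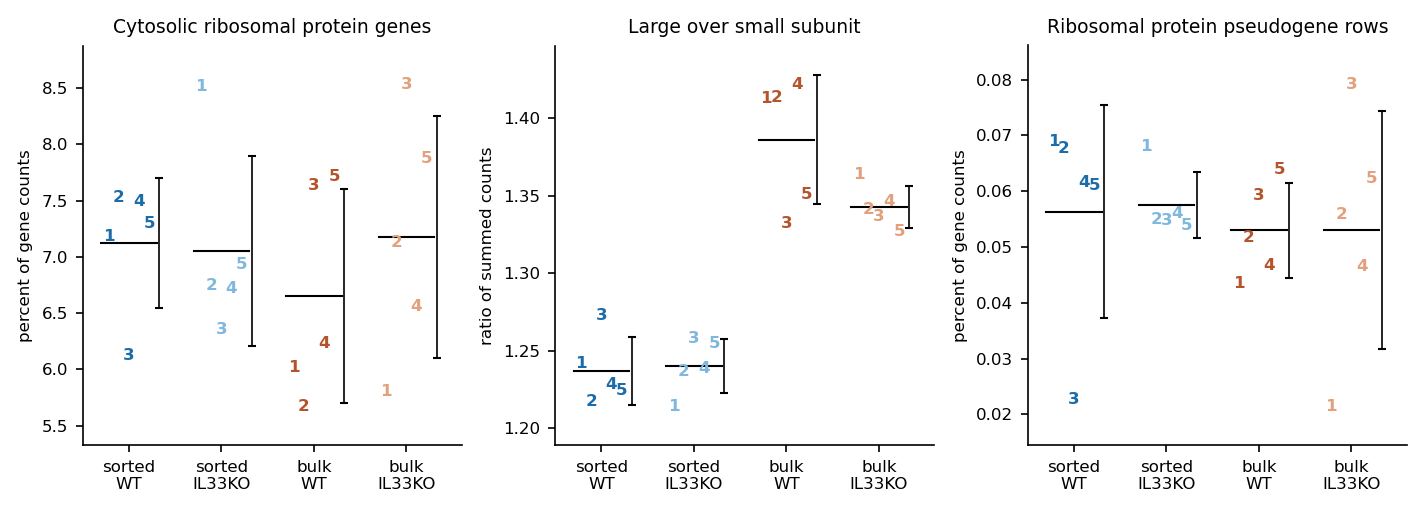
Share of gene counts in the 87 ribosomal protein genes (left, percent), ratio of summed large- to small-subunit counts (middle) and share of counts in ribosomal protein pseudogene rows named with -ps (right, percent), for 4 groups of 5 libraries; digits are replicate numbers, bars means, whiskers SD, and the axes do not start at 0. The shares overlap between groups, the ratio of every sorted library is below that of every bulk library, and sorted WT 3 and bulk IL33KO 1 are the lowest in pseudogene counts.

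Per base of transcript (shortest principal transcript in GENCODE), the highest levels over the 20 libraries belonged to Rps27 (2783 CPM per kilobase), Rps12 (2769) and Rpl41 (2423), the last encoding a very short peptide of the large subunit. The lowest belonged to copies: Rps4l at 6.80, Rpl39l at 0.664 and Rpl3l at 0.553 CPM per kilobase. Every one of the 77 main genes had at least 5527 counts in every library, so counting error is small beside the spread between libraries for them. That spread differed by group: the median SD of log2 CPM over the main genes was 0.12 in sorted WT, 0.16 in sorted IL33KO, 0.27 in bulk WT and 0.19 in bulk IL33KO. Over all 1953 genes averaging 100 CPM or more it was 0.19, 0.17, 0.24 and 0.20.

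**Figure D2:**
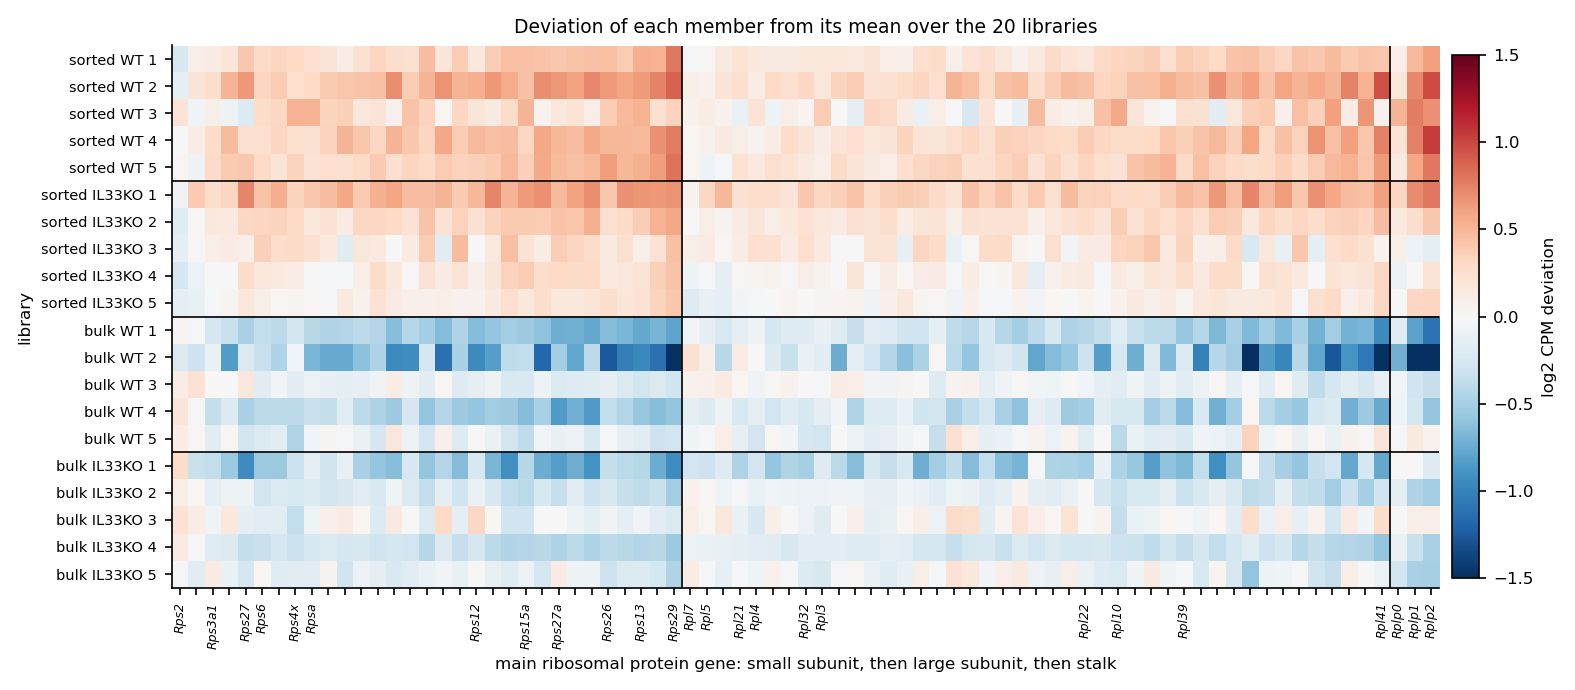
Deviation of log2 CPM of each of the 77 main genes (columns, ordered by subunit, with the genes described in the text labelled) from its mean over the 20 libraries (rows, replicate numbers after the group); red is higher, blue lower, and the colour scale ends at 1.5. Sorted libraries are mostly red and bulk libraries mostly blue, with bulk WT 2 lowest for 47 of the 77 main genes in its group and bulk IL33KO 1 lowest for 57 in its group.

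Sorted leukocytes were compared with bulk tumour in WT hosts to ask where the family is more highly represented. On the TMM scale 74 of the 85 tested members were higher in sorted leukocytes and 1 was lower, against 33.7% of all genes higher and 34.3% lower. The median log2 difference of the members was 0.62 (1.54-fold), with that of all genes at −0.00. With library size alone as the scale, all genes shifted to a median of −0.51 and the members to 0.11, with 58 of 85 positive, 15 called higher (20.1% of all genes) and 10 lower (52.6% of all genes). Relative to the median gene the members stood 0.62 higher by TMM and 0.63 higher by library size, with 82 of 85 above that median on both scales. A change of scale moves all genes nearly alike, so this near-equality follows from the method and does not test the scale.

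In IL33KO hosts 57 of 85 tested members were higher in sorted leukocytes and 2 were lower, against 31.3% of all genes higher and 31.7% lower. The median difference was 0.41 (1.33-fold), with all genes at 0.02. By library size alone the members' median was −0.04 and that of all genes −0.43. On that scale 38 of 85 members were positive, against 81 by TMM. Called higher were 4 members (18.8% of all genes), and called lower 6 (50.3% of all genes). Relative to the median gene the members stood 0.39 higher on both scales, which again follows from the method and does not test the scale. Called members shared between hosts numbered 57, all in the same direction, of 75 called in WT and 59 in IL33KO hosts. The same overlap was not counted over all genes, so it is not read as a trait of the family. Without sorted WT 3 and bulk IL33KO 1, 78 members were called in WT and 49 in IL33KO hosts. Every sorted library was above every bulk library for 59 of 85 members in WT hosts (26.1% of all genes) and for 42 in IL33KO hosts (23.7% of all genes).

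By subunit, the counts on the TMM scale in WT hosts are set against 33.7% of all genes higher. Higher in sorted leukocytes were 29 of 31 main small-subunit genes, 39 of 43 large-subunit genes and 3 of 3 stalk genes. Their median differences were 0.75, 0.52 and 1.17. In IL33KO hosts the counts were 23 of 31, 31 of 43 and 1 of 3 (31.3% of all genes), with medians of 0.57, 0.38 and 0.51. Rps2, a small-subunit protein, was the 1 main gene called lower, in IL33KO hosts.

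**Figure D3:**
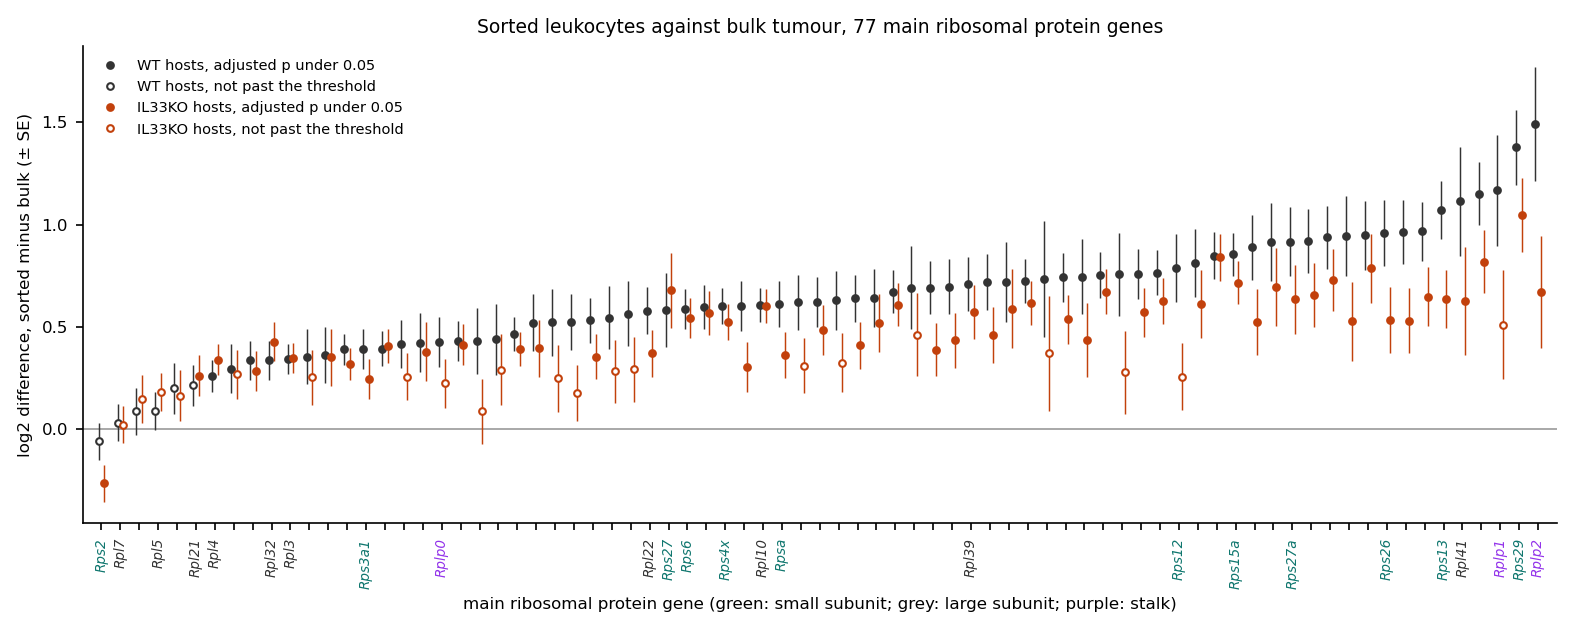
Log2 difference between sorted leukocytes and bulk tumour (± SE) for the 77 main genes, in WT hosts (dark) and IL33KO hosts (orange), ordered by the WT difference, with the genes described in the text labelled; filled points are past an adjusted p of 0.05. Nearly all points lie above 0 on the TMM scale, from −0.06 for Rps2 to 1.49 for Rplp2 in WT hosts.

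Rplp2 had the largest difference of the 77 main genes in WT hosts, while in IL33KO hosts that was Rps29. Both have short transcripts, 421 and 390 bases. Spearman rho of the difference with transcript length over the main genes was −0.34 in WT and −0.22 in IL33KO hosts. Over protein-coding genes it was −0.20 and −0.10. The part of length in these values was not tested. Rplp2 stood at 1204, 1550, 1270, 1623 and 1360 CPM in sorted WT 1 to 5 and at 365, 183, 621, 527 and 816 in bulk WT 1 to 5. The groups did not overlap, and the log2 difference was 1.49 (SE 0.28, adjusted p = 9.95e-05, edgeR). In IL33KO hosts Rplp2 stood at 1361, 1040, 716, 905 and 986 CPM in sorted and 691, 548, 842, 562 and 557 in bulk libraries, which overlapped. The log2 difference there was 0.67 (SE 0.27, adjusted p = 0.0393 with edgeR), and it was lost under several alternatives, such as a fit without sorted IL33KO 1 (0.53, adjusted p = 0.11).

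Rplp1, the partner of Rplp2 in the stalk, was at 1539, 1817, 1868, 1852 and 1643 CPM in sorted WT and 630, 257, 891, 917 and 1213 in bulk WT. Its difference was 1.17 (SE 0.27, adjusted p = 0.000831, edgeR) in WT hosts, where every sorted library was above every bulk library. In IL33KO hosts the sorted values were 1801, 1315, 1030, 1106 and 1359 and the bulk values 1097, 797, 1171, 872 and 782 CPM. They overlapped, with a log2 difference of 0.51 (SE 0.27, adjusted p = 0.103, edgeR). Rplp0, the base of the stalk, was at 2835 ± 343 CPM in sorted WT and 2126 ± 382 in bulk WT (log2 0.43, SE 0.12, adjusted p = 0.00436, edgeR), a difference that became −0.09 by library size alone.

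Bulk WT 2 was the lowest bulk WT library for all 3 stalk genes, at 257 CPM for Rplp1, 183 for Rplp2 and 1466 for Rplp0. Without it the WT differences were 0.94 for Rplp1, 1.28 for Rplp2 and 0.32 for Rplp0, and all 3 passed the threshold in edgeR's fit without that library. In that library the members' deviations from the group mean went with the GC content of their transcripts (Spearman rho −0.65 over 77 genes, which share 1 library), against −0.46 to 0.56 in the other 19 libraries. Over 14966 protein-coding genes the rho was −0.64 there and −0.22 to 0.30 elsewhere. The part of base composition in these values was not tested.

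Among small-subunit genes, the smallest p in WT hosts belonged to Rps15a, Rps13 and Rps29. Rps15a stood at 839, 842, 884, 768 and 793 CPM in sorted WT and 424, 480, 530, 395 and 474 in bulk WT (log2 0.85, SE 0.10, adjusted p = 7.2e-07, edgeR). In IL33KO hosts it stood at 961, 814, 718, 804 and 689 in sorted and 460, 466, 502, 455 and 583 in bulk libraries (log2 0.72, SE 0.10, adjusted p = 8.08e-06, edgeR). The groups did not overlap in either host. Rps29, a zinc-binding protein, was at 1068 ± 143 CPM in sorted WT, 913 ± 75.0 in sorted IL33KO, 415 ± 123 in bulk WT and 449 ± 76.3 in bulk IL33KO, with differences of 1.38 (SE 0.18) and 1.05 (SE 0.18). Rps13 was at 667 ± 25.5, 572 ± 92.9, 321 ± 72.8 and 374 ± 44.8 CPM in the same order of groups. Among large-subunit genes, Rpl10, whose protein joins the subunit late, differed by 0.61 (SE 0.08) in WT and 0.60 (SE 0.08) in IL33KO hosts.

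**Figure D4:**
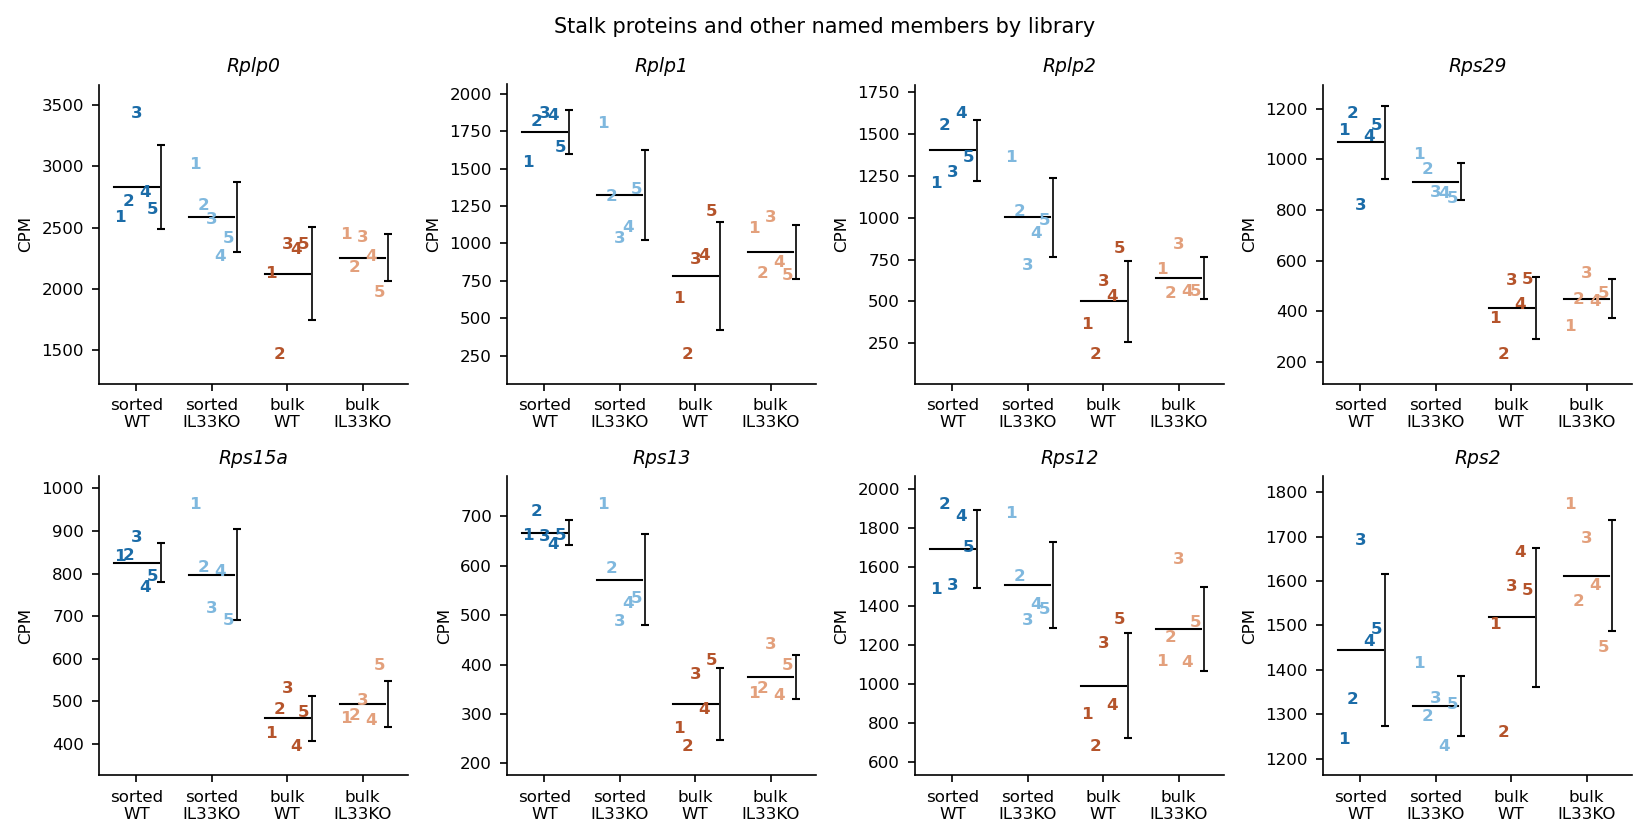
TMM-scaled CPM of 8 members in each library, by group; digits are replicate numbers, bars means, whiskers SD, and the axes do not start at 0. Rps15a, Rps13 and Rps29 separate sorted from bulk libraries in both hosts, Rplp1 and Rplp2 do so in WT hosts, and bulk WT 2 is the lowest bulk WT library in 7 of the 8 panels.

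Rps6, the substrate of S6 kinase, was at 1040, 1069, 1029, 1008 and 1049 CPM in sorted WT and 660, 678, 764, 646 and 741 in bulk WT, with no overlap. Its log2 difference was 0.59 (SE 0.10, adjusted p = 3.58e-05, edgeR) in WT and 0.54 (SE 0.10, adjusted p = 0.000104) in IL33KO hosts. On the TMM scale Rpl3, of the core of the large subunit, differed by 0.34 (SE 0.07) and 0.35 (SE 0.07). By library size alone the median over the members moved from 0.62 to 0.11 in WT and from 0.41 to −0.04 in IL33KO hosts. Rpsa, also known as the laminin receptor, differed by 0.61 (SE 0.11) and 0.36 (SE 0.11, or −0.09 by library size alone), and Rps27a, made as a fusion with ubiquitin, by 0.92 (SE 0.17) and 0.63 (SE 0.17).

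Rpl7 and Rpl5 did not pass in either host, and Rps2 did not in WT hosts. Rpl7 was at 1532 ± 45.1 CPM in sorted WT and 1514 ± 153 in bulk WT (log2 0.03, SE 0.09). Rpl5, which with Rpl11 can bind the p53 regulator Mdm2, was at 1105 ± 52.4 and 1048 ± 95.1 (log2 0.09, SE 0.09). Rps2 was at 1444 ± 170 CPM in sorted WT and 1518 ± 156 in bulk WT, where the groups overlapped. In IL33KO hosts Rps2 stood at 1414, 1294, 1336, 1228 and 1322 in sorted and 1772, 1553, 1695, 1590 and 1449 in bulk libraries (log2 −0.26, SE 0.09, adjusted p = 0.0163, edgeR), with every sorted library below every bulk library.

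Of 8 paralogue copies tested, 3 were higher and 1 lower in sorted leukocytes of WT hosts, and 2 were higher and 1 lower in IL33KO hosts. The shares of higher copies are near those of all genes, 33.7% in WT and 31.3% in IL33KO hosts. Rpl7l1, a nucleolar relative of Rpl7 that acts in ribosome assembly, stood at 86.9, 97.2, 101, 95.2 and 90.5 CPM in sorted WT and 115, 123, 116, 111 and 106 in bulk WT (log2 −0.26, SE 0.07, adjusted p = 0.003, edgeR). Its difference in IL33KO hosts was −0.21 (SE 0.07, adjusted p = 0.0165, edgeR). Rpl22l1 overlapped between compartments (85.7 ± 11.9 in sorted WT, 93.5 ± 12.6 in bulk WT), whereas Rpl22 itself was higher in sorted WT (432 ± 44.4 against 292 ± 38.6; log2 0.58, SE 0.11, adjusted p = 0.000196, edgeR). On the TMM scale Rps27l, a p53 target, was higher in sorted leukocytes by 0.79 (SE 0.16) in WT and 0.39 (SE 0.16) in IL33KO hosts. Rps27 was higher by 0.58 (SE 0.18) and 0.68 (SE 0.18).

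Rpl39l, a copy of X-linked Rpl39 known from testis, was rare, with 12 to 55 counts per library in sorted WT and 16 to 55 in sorted IL33KO. In bulk it had 1 to 11 counts in WT and 2 to 22 in IL33KO libraries, where 3 counts correspond to 0.0331 to 0.0468 CPM. Sorted libraries held 0.336, 1.17, 0.420, 0.256 and 0.468 CPM in WT and bulk WT libraries 0.0261, 0.0283, 0.0649, 0.0139 and 0.141, with no overlap (log2 3.22, SE 0.63, adjusted p = 0.000161, edgeR). In IL33KO hosts the difference was 2.58 (SE 0.58, adjusted p = 0.000748, edgeR). Rps4l, a copy of X-linked Rps4x, stood at 8.78, 8.31, 10.01, 8.48 and 9.35 CPM in sorted WT and at 0.848, 0.496, 1.67, 1.39 and 5.79 in bulk WT (log2 2.14, SE 0.48, adjusted p = 0.000648, edgeR). In IL33KO hosts it was 6.95 ± 2.38 in sorted and 3.48 ± 1.37 in bulk libraries (log2 1.02, SE 0.47, adjusted p = 0.0638, edgeR).

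Rpl3l, the copy of Rpl3 known from striated muscle, was at 0.420 to 1.40 CPM in sorted WT and 0.612 to 0.726 in sorted IL33KO. In bulk it was at 0.0277 to 0.140 CPM in 7 libraries, and at 1.45 in WT 5, 4.78 in IL33KO 1 and 0.730 in IL33KO 5. The same 3 bulk libraries held the skeletal muscle markers Acta1, Myh4, Ckm and Tnnt3, at summed levels of 893, 1841 and 501 CPM, against 0.464 to 1.72 in the other 7 bulk libraries; their part in Rpl3l was not tested. The Rpl3l differences between compartments were 1.22 (SE 1.00) in WT and −0.77 (SE 0.98) in IL33KO hosts, neither past the threshold. Without bulk IL33KO 1 the latter became 1.37.

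**Figure D5:**
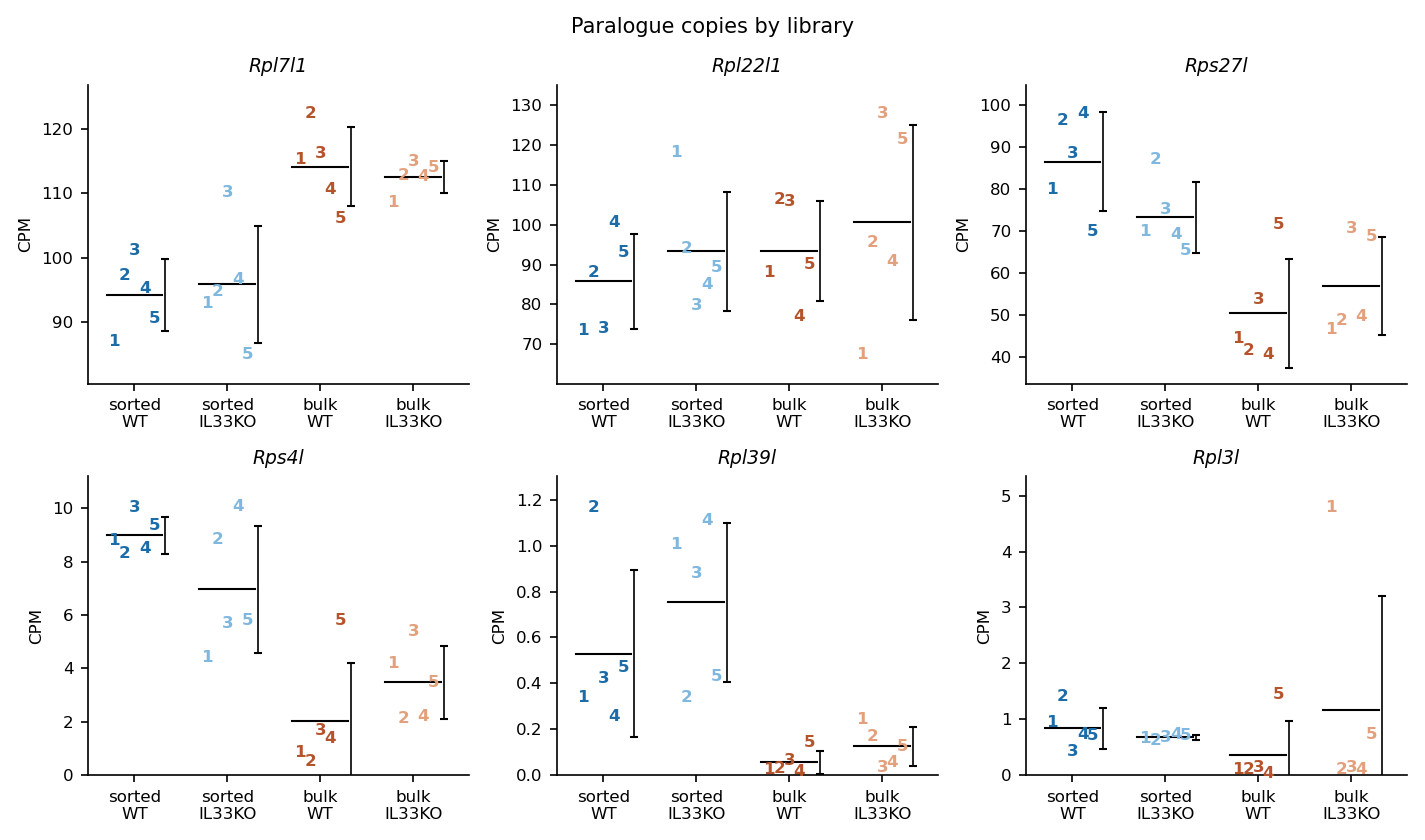
TMM-scaled CPM of 6 paralogue copies in each library, by group; digits are replicate numbers, bars means, whiskers SD, only the lower 3 panels start at 0, and whiskers are clipped there. Rpl7l1 is lower and Rpl39l higher in sorted libraries, and Rpl3l is highest in bulk IL33KO 1.

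Rps3a2 and Rps3a3 are copies of Rps3a1 annotated as processed pseudogenes, and reads can be split between such copies and their source, so their values are uncertain. Rps3a1 stood at 1721 ± 111 CPM in sorted WT. Rps3a3 was at 26.5, 31.2, 27.9 and 29.5 in sorted WT 1, 2, 4 and 5 and at 6.12 in sorted WT 3, and at 5.40 in bulk IL33KO 1 against 15.6 to 26.9 in the other 4 of its group. Those 2 libraries also had the lowest share of counts in the 271 pseudogene rows named with -ps, 0.0227% and 0.0214% against 0.0435 to 0.0792% in the other 18. They are also the libraries with few unaligned reads, and the part of this in the values was not tested.

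Host genotype was compared within sorted leukocytes to ask whether the family depends on IL-33 in the host. No member passed among 85 tested (0.012% of all genes called), with 4 members at an unadjusted p under 0.05. The median log2 difference, IL33KO minus WT, was −0.09, with 12 members positive and all genes at a median of 0.02. By library size alone it was −0.00, with 40 positive and all genes at 0.11. The smallest p belonged to Rps26, a small-subunit protein at 665, 758, 634, 690 and 753 CPM in sorted WT and 646, 582, 535, 541 and 588 in sorted IL33KO. These values overlapped (log2 −0.26, SE 0.09, adjusted p = 0.262, edgeR); DESeq2 called it with an adjusted p of 0.0294, as it did 1.26% of all genes in that direction, and limma voom with sample weights with 0.0427, as it did 1.27% of all genes.

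Rplp2 and Rplp1 followed, at 1402 ± 180 against 1002 ± 236 CPM (log2 −0.47, SE 0.16, adjusted p = 0.269, edgeR) and 1744 ± 146 against 1322 ± 301 (log2 −0.39, SE 0.14, adjusted p = 0.299). Sorted IL33KO 1 lay within the WT range for both, and the other 4 IL33KO libraries were below every WT library. Rpl39l (0.52, SE 0.47), Rpl22l1 (0.13, SE 0.13) and Rpl5 (0.06, SE 0.09) had the smallest p among positive differences. With the share of reads that did not align uniquely as a covariate the members' median was −0.20. That share was 15.1 to 18.9% in sorted WT and 16.5 to 22.5% in sorted IL33KO, and its part in the values was not tested further. Spearman rho of this genotype difference with transcript length was 0.28 over the 77 main genes and 0.40 over 14178 protein-coding genes. With GC content it was −0.36 and −0.30. The part of length and base composition in the genotype values was not tested.

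In bulk tumour no member passed among 83 tested, as no gene of any kind did (0%), and no member had an unadjusted p under 0.05. The median difference was 0.08 with 65 members positive. The smallest p was that of Rps12, at 843, 681, 1209, 889 and 1329 CPM in bulk WT and 1116, 1236, 1635, 1107 and 1313 in bulk IL33KO (log2 0.36, SE 0.20, adjusted p = 0.724, edgeR), with overlapping groups. Rps13 (0.21, SE 0.16) and the copy Rps4l (0.76, SE 0.59) came next among positive differences, and Rpl10 (−0.11, SE 0.08), Rpl4 (−0.08, SE 0.09) and Rpl21 (−0.10, SE 0.12) among negative ones. Limma voom with sample weights called Rps12 and Rps4l higher, with 11.1% of all genes. Adding the pan-leukocyte level to the model gave a median of 0.03 over the members.

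The difference of the differences asked whether the compartments diverge by host genotype. No member passed among 85 (0% of all genes), with 3 at an unadjusted p under 0.05, 75 negative and a median of −0.19 against −0.01 for all genes. By library size alone the median was −0.13. Rps12 (−0.53, SE 0.23), Rps13 (−0.43, SE 0.20) and Rplp2 (−0.82, SE 0.38) had the smallest p, each with an adjusted p of 0.445 in edgeR. The positive differences of smallest p were those of Rpl4 (0.08, SE 0.11), Rpl5 (0.09, SE 0.13) and Rpl32 (0.09, SE 0.14). Limma voom with sample weights called 19 members, all lower, against 10.3% of all genes lower. DESeq2 called none of them. Spearman rho of the interaction with transcript length was 0.32 over the main genes and 0.36 over protein-coding genes. The part of length was not tested.

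The genes around the ribosome were read from lists of related function. Of all genes, 33.7% were higher and 34.3% lower in sorted leukocytes of WT hosts, and 31.3% and 31.7% in IL33KO hosts. Counts near those shares are not read as a trait of a list. Of the ribosomal proteins outside the symbol rule, Fau, Gnb2l1 and Rpl36al were higher in sorted leukocytes in each host. Fau, made as a fusion with a ubiquitin-like protein, was higher by 1.23 (SE 0.20) in WT and 0.70 (SE 0.19) in IL33KO hosts. Of 16 elongation factors and other TOP transcripts, 6 were higher and 3 lower in WT hosts and 9 and 2 in IL33KO hosts, with Tpt1 higher by 0.81 (SE 0.08) and 0.55 (SE 0.08). Of 17 initiation factors 2 were higher and 6 lower in WT and 4 and 5 in IL33KO hosts, with medians of −0.05 and 0.01. Eif4g1, the scaffold of the cap-binding complex, differed by −0.97 (SE 0.11) and −0.78 (SE 0.11). Eif1 went the other way in WT hosts, by 1.02 (SE 0.15).

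Of 28 ribosome assembly genes, 3 were higher and 13 lower in sorted leukocytes of WT hosts, and 4 and 13 in IL33KO hosts. The shares of all genes, for this and the next 2 lists, were 33.7% and 34.3% in WT and 31.3% and 31.7% in IL33KO hosts. Nop56, a core protein of the RNA-methylating particle of the nucleolus, differed by −0.79 (SE 0.08) and −0.65 (SE 0.08). Of 11 genes of RNA polymerase I and its factors, 3 were higher and 5 lower in WT and 2 and 5 in IL33KO hosts. Polr1b differed by −1.07 (SE 0.09) and −0.67 (SE 0.09), and Taf1b went the other way, by 1.05 (SE 0.12) and 1.08 (SE 0.12). Of 15 genes that control ribosomal protein synthesis, 3 were higher and 6 lower in WT and 2 and 5 in IL33KO hosts. Max, the partner of Myc, differed by 1.46 (SE 0.10) and 1.13 (SE 0.10), and Mycn by −2.06 (SE 0.27) and −2.75 (SE 0.27).

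The mitochondrial ribosome, a separate particle with 77 nuclear genes here, had 34 genes higher and 20 lower in sorted leukocytes of WT hosts and 19 and 29 in IL33KO hosts. Its median difference was 0.14 in WT and −0.13 in IL33KO hosts. The background for these counts is 33.7% of all genes higher and 34.3% lower in WT hosts, and 31.3% and 31.7% in IL33KO hosts. Between genotypes its median difference was −0.13 in sorted leukocytes, with 7 of 77 genes positive, and 0.06 in bulk, with 56 positive. In the interaction its median was −0.24, with 14 positive. The cytosolic members had medians of −0.09, 0.08 and −0.19, so the lean of their signs is not particular to them. No gene of these 7 related lists passed in either genotype comparison or in the interaction with edgeR.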

How the data were processed

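RNA-seq was measured in 20 mouse libraries (polyA RNA, stranded kit, per the labels' protocols). The authors deposited raw HTSeq counts per gene; tools named in the submitters' processing notes are HTSeq, Picard and DESeq, with mm10 as build and no versions. The authors also deposited scaled signal, counts divided by size factors, per the file headers, used only as an alternative. Aligner and strand setting: not given in the sources used here, so genes that overlap or have near-identical copies are uncertain. The 5 summary lines were left out of library sizes and tests. Members, lists and comparisons were chosen with earlier results of these data known.

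Counts were fitted in R 4.3.3 with edgeR 4.0.16 (filterByExpr, TMM, robust quasi-likelihood test, two-sided), genotype within 10 libraries of a compartment and the other contrasts over all 20. Of the 87 members, 85 passed the low count filter in the fits of sorted or of all libraries and 83 in bulk. DESeq2 1.42.0 and limma 3.58.1 gave alternatives. TMM factors ran from 0.756 to 1.25, lowest in sorted WT. Benjamini-Hochberg adjustment ran over all genes tested, threshold 0.05. Log2 CPM used a prior count of 2. The tests were checked first on simulated data in which few genes changed. That check cannot judge the TMM scale in the compartment comparisons, where most genes were called. Named members were those always described (stalk genes, Rpsa, Rps27a, Rps6, Rpl3, copies with their main gene), the 3 of smallest p per direction and comparison, and the 3 highest and lowest per length; some results are not reported here. No replicates agreed within sampling noise (lowest chi-square per gene 19.6). Coordinates are GENCODE M21 and RefSeq (GRCm38.p6).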

Additional observations from a re-analysis of the deposited data

Results flagged for a closer look

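In groups of 5, a highest or lowest library was marked where its gap to the next exceeded 0.71 of the group's range; chance marks about 1 in 20 groups, and 16 marks came from 148 groups of named members and shares. Sorted WT 3 was highest for Rplp0 (3433 CPM), Rpsa (3233 CPM) and Rpl3 (1533 CPM) and lowest for Rps29 (819 CPM), Rps3a3 (6.12 CPM), the member share (6.13%) and the pseudogene share (0.0227%). Sorted IL33KO 1 was highest for the member share (8.52%) and the pseudogene share (0.0680%). Sorted WT 2 was highest for Rpl39l (1.17 CPM) and Rps13 (711 CPM). Bulk WT 5 was highest for Rpl3l (1.45 CPM) and Rps4l (5.79 CPM), and bulk WT 2 was lowest for Rplp0 (1466 CPM). Bulk IL33KO 1 was highest for Rpl3l (4.78 CPM) and lowest for Rpl21 (643 CPM).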

How the results depend on the processing

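The counts of members called kept within 1.5 times of 75 (WT) and 59 (IL33KO hosts) except with library size alone (25 and 10). Leaving out 1 library gave 69 to 78 and 48 to 67 calls, and 0 in the other comparisons. The replicate block gave 71 and 50 and changed no other count. Over 20 same-numbered pairs r ran from −0.26 to 0.59, above 0.1 in 9, and 7 matched best with their own number. Between sorted and bulk libraries of a host genotype r ran from −0.26 to 0.30, so the libraries were not treated as paired. Between WT and IL33KO libraries of a compartment, which cannot share a host, r ran from −0.19 to 0.59. What same-numbered libraries share there was not tested. Other tools called 1 member in sorted genotype (DESeq2 and voom each), 2 in bulk genotype (voom) and 19 in the interaction (voom). Over all genes, edgeR called 2, 0 and 0 in those comparisons, DESeq2 477, 53 and 4, and voom 400, 3371 and 3406. The sorted WT share became 7.96% over protein-coding counts; other shares moved by less than 1 SD, and without 1 library they ran from 7.02 to 7.37% (sorted WT), 6.69 to 7.23%, 6.39 to 6.90% and 6.84 to 7.52%. Reversed without being called: with the share of reads not uniquely aligned as covariate, Rpl22l1 (−0.034) and Rpl5 (−0.051) in sorted genotype and Rpl5 (−0.0049) in the interaction; with voom Rpl22l1 in WT compartments (0.049), Rpl5 (−0.029) and Rpl32 (−0.049) in the interaction, Rpl32 −0.013 without both libraries with few unaligned reads, a set chosen after seeing the data. With library size alone Rplp0 turned to −0.087 (WT) and −0.22 and Rpsa to −0.086 in IL33KO hosts. On that scale 27 of 85 members were negative in WT and 47 in IL33KO hosts. Rpl3l in IL33KO hosts became 1.91 with voom (adjusted p = 0.0123), 1.04 with the replicate block, 0.92 with the scaled table and 1.37 without those libraries; without 1 library it ran from −1.07 to 1.37, and Rpl5 in sorted genotype from −0.00040 to 0.11. The cause was not tested. Depth limits only the rare copies Rpl39l and Rpl3l.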
